A study of Mus musculus with 14 samples.

Results

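Inhibitory neurons of type I3a were compared with those of type I3b, both from the medial vestibular nucleus of the mouse brainstem. The arrays titled I3a (2 arrays) formed the first side and those titled I3b (2 arrays) the second, so that 4 of the 14 arrays of the series were members. The mice were 24 to 32 days old, of C57BL/6 background, and carried reporters of 3 kinds (YFP-16, GIN or GlyT2-13). The study prepared cDNA from single neurons, sorted the cells into types by their transmitter genes, ion channels and markers, and pooled the cDNA of each type. The labels of I3a and I3b give the same lines, strain, age range and tissue and differ in the type assigned to the cells. Each pool was labelled with biotin and hybridised to 2 Affymetrix arrays, which are technical replicates. With 1 pool for each type there is no spread between samples, so no difference between I3a and I3b carries a p-value, and errors given here are technical. A type E3 that the design also names was not analysed here.

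As background, the medial vestibular nucleus receives head-motion signals from the inner ear and drives the reflexes that hold gaze and posture steady. Its inhibitory neurons release GABA, glycine or both, and include neurons that project out of the nucleus as well as local interneurons. The 3 reporter lines label overlapping sets of such cells, since YFP-16 is driven by regulatory sequence of Thy1, GIN by that of Gad1 and GlyT2-13 by that of Slc6a5, the neuronal glycine transporter gene. Which line gave which cell, and how many cells entered each pool, is not given in the labels. Because transmitter, channel and marker genes were used to sort the cells, a difference in such a gene cannot be told apart from the sorting, and the labels do not name the genes used.

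Values are signals on the log2 scale, where 1 unit is a doubling, with a floor of 2.39. The arrays held 16244 genes, and the 4409 (27.1%) with a mean of 5 or more in at least 1 of the 7 types were compared. A gene was called when the I3a mean differed from the I3b mean by at least 1 log2 unit and both I3a arrays lay on the same side of both I3b arrays. The arrays were alike in how many genes they detected, with 3545 to 3597 genes at 5 or more on the I3a arrays and 3649 to 3782 on the I3b arrays. Across the 4409 genes the 2 arrays of I3a correlated at r = 0.981, the 2 arrays of I3b at 0.990, and arrays of I3a with arrays of I3b at 0.940 on average, a description across genes, which are not independent. The arrays of I3a varied most of the 7 pools, with an SD between arrays of 0.29 log2 units against 0.24 in I3b. Control transcripts that are added in fixed amounts mostly read higher in I3a where they were detected. All BioB, BioC, BioD and Cre probe sets did, by 0.13 to 0.91, as did the Lys probe sets, by 0.37 to 0.88. The BioB 3' probe set was at 9.45 and 9.79 in I3a against 9.13 and 8.44 in I3b. The Lys 3' probe set was at 12.03 and 11.98 in I3a against 11.64 and 11.63 in I3b. The r2 Phe 3' probe set ran the other way, at 6.49 and 5.68 in I3a against 6.83 and 6.97 in I3b. The 3' and 5' probe sets of Gapdh read 9.53 and 3.91 in I3a, against 9.34 and 3.71 in I3b. Their part in the differences below was not tested.

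In all, 139 genes (3.15% of those compared) were called higher in I3a and 317 (7.19%) lower, 456 (10.3%) in either direction. Large differences were fewer, with 42 higher and 58 lower by at least 2 log2 units and 8 higher and 19 lower by at least 3. The median difference over all 4409 genes was -0.09, and the excess of lower calls depended in part on the scaling: 30.5% of calls were higher in I3a as deposited, 40.6% (173 higher, 253 lower) after quantile normalization, which moved the median of all genes by 0.12, and 37.9% (162 higher, 266 lower) after centring each array on its median. The same call rule gave 338 genes between E1 and E2, 594 between I1a and I1b, and 642 to 1059 between either I3 type and the other inhibitory types. The I3a and I3b means correlated at r = 0.947 across the 4409 genes, above the 0.926 of I3a with I1a and the 0.921 of I3a with E2, the next 2 for I3a.

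**Figure D1:**
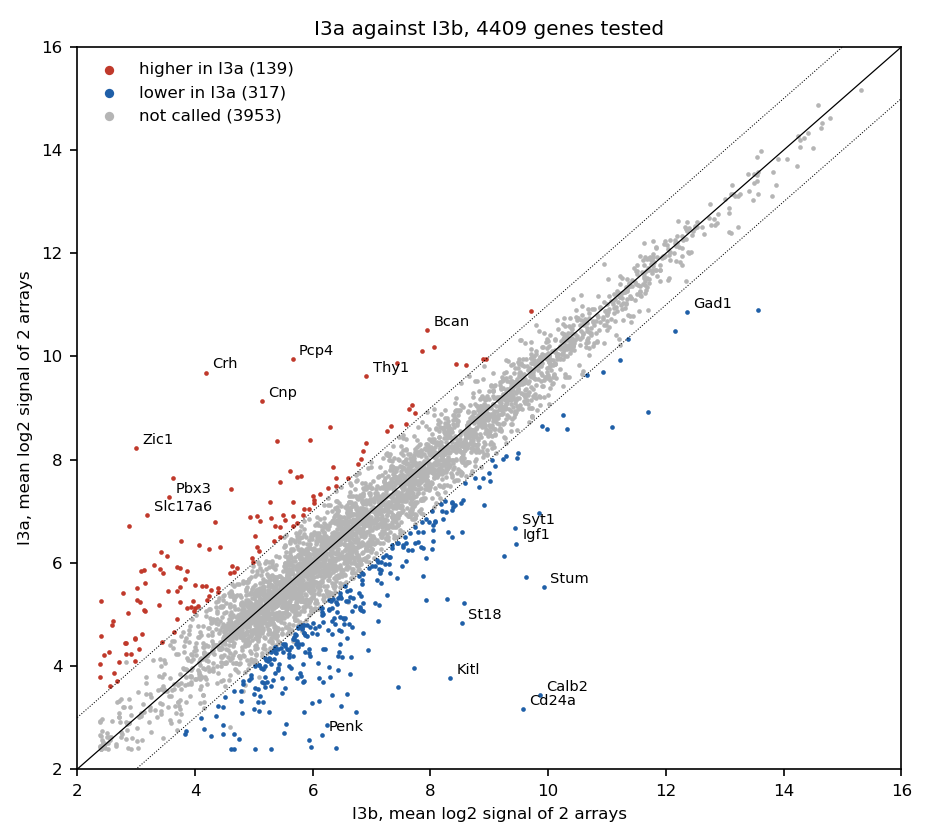
Mean log2 signal of the 2 I3a arrays (vertical axis) against that of the 2 I3b arrays (horizontal axis) for 4409 genes. The solid line marks equal signal and the dotted lines a difference of 1 log2 unit; 139 genes were called higher in I3a, 317 lower, and most genes at high signal lie near the line.

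Calls were most frequent where signals were low. Among the 760 genes whose mean over the 14 arrays was under 5, 52 were called higher and 92 lower (18.9% together), whereas among the 702 genes at 9 or more only 7 were higher and 14 lower. In 81 of the 139 genes called higher in I3a (58.3%, against 15.9% of all genes compared), the I3b mean was under 5. In 174 of the 317 genes called lower (54.9%, against 19.3% of all), the I3a mean was under 5. For such genes the size of the difference runs down to the floor of the scale, and the smaller difference with values under 5 set to 5 is given below for some. Among other leading genes it was 3.22 for Zic1, 2.64 for Cbln4, 2.43 for Cav2, 2.27 for Pbx3, 1.71 for Acaa1b and 1.20 for Mbp. On the lower side it was -4.57 for Cd24a, -3.34 for Kitl, -3.23 for St18 and -2.72 for Ryr3. It was -2.45 for Stxbp6, -1.74 for Ntng1, -1.39 for Gpr101 and -1.16 for Penk.

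Both pools carried the transmitter genes of inhibitory neurons. Slc32a1, the vesicular transporter for GABA and glycine, read 9.65 and 9.43 in I3a, against 9.52 and 9.63 in I3b, and did not separate them (difference -0.03). Gad1, an enzyme of GABA synthesis, was the only member of the 5 compared in the GABA and glycine list to be called, at 10.80 and 10.92 in I3a against 12.20 and 12.52 in I3b (difference -1.50, technical SE 0.11). Gad2, the other synthesis enzyme, read 8.90 and 9.08 in I3a against 9.34 and 9.33 in I3b. The I3a arrays were thus below the I3b arrays for both enzymes, clearly so for Gad1. Slc6a5 ran the other way, at 8.55 and 8.39 in I3a against 7.64 and 7.42 in I3b, but its difference of 0.94 missed the threshold. Slc6a9, the glial-type glycine transporter, was near the detection level in both, at 5.09 and 4.88 in I3a against 5.98 and 4.88 in I3b.

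The I3a pool also held a signal for Slc17a6, which encodes a vesicular glutamate transporter (VGLUT2). It read 6.94 and 6.92 in I3a, against 3.32 and 3.06 in I3b (difference 3.74, SE 0.09, and 1.93 with values under 5 set to 5). The I3a level lay well under the 11.11 of E1 and 10.98 of E2 and also under the 8.60 of I1a and 10.48 of I1b, while I2 (3.11) was as low as I3b. The other 2 genes compared in the glutamate list, the glutamine transporters Slc38a1 and Slc38a2, differed by -0.25 and -0.29, and the vesicular transporter Slc17a7 was at the floor on both I3a arrays and at 2.39 and 2.49 in I3b. In a pool, fewer cells that express a gene and less RNA per cell cannot be told apart.

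The gene that stood highest in I3a over I3b was Crh, which encodes corticotropin-releasing hormone. Its signal was 9.77 and 9.60 in I3a, against 4.36 and 4.02 in I3b (difference 5.50, SE 0.15, and 4.69 with values under 5 set to 5). Crh was higher still in E1 (10.87) and E2 (13.22), lower in I1b (8.29) and I2 (7.73) and near the floor in I1a (2.86). Zic1, which encodes a zinc finger factor active in the dorsal hindbrain, came next at 8.20 and 8.24 in I3a, against 2.71 and 3.29 in I3b (difference 5.22, SE 0.24). It was at 7.92 to 9.85 in E1, E2 and I1b, and at 3.63 and 2.71 in I1a and I2. Crh and Zic1 were thus detected in I3a, E1, E2 and I1b, all far above I3b and I1a.

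Pcp4, a small calmodulin-binding protein, read 9.76 and 10.12 in I3a, against 5.17 and 6.15 in I3b (difference 4.28, SE 0.31). Cbln4, a secreted C1q-family protein that organises synapses, read 7.51 and 7.78 in I3a, against 3.35 and 3.91 in I3b (difference 4.02, SE 0.31). Pbx3, a homeodomain cofactor of Hox proteins, read 7.22 and 7.32 in I3a, against 3.29 and 3.84 in I3b (difference 3.70, SE 0.17). These 3 genes had the same order across pools as Zic1 in that I2 was low (2.60 to 3.80), but I1a was higher for each of them (5.93 to 10.01) than I3b. Rbfox3, the splicing regulator known as NeuN and a general marker of mature neurons, read 8.23 and 8.51 in I3a, against 5.24 and 5.55 in I3b (difference 2.98, SE 0.15). The I3b level of Rbfox3 was the lowest of all 7 pools, the next lowest being I2 at 7.91.

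Of the remaining genes among the 12 with the largest excess in I3a, Acaa1b, a peroxisomal thiolase of fatty acid oxidation, read 6.74 and 6.68 in I3a, against 2.86 and 2.89 in I3b. Cnr1, the cannabinoid receptor CB1, read 6.01 and 4.50 in I3a, against 2.39 and 2.40 in I3b, and its I3a arrays disagreed by more than 1 unit. Cav2, a caveolin of membrane pits, read 7.34 and 7.52 in I3a, against 4.47 and 4.77 in I3b. All 3 sets of arrays were apart, by 3.83, 2.86 and 2.81 on average, but with values under 5 set to 5 the difference of Cnr1 was 0.50 and it was no longer called.

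**Figure D2:**
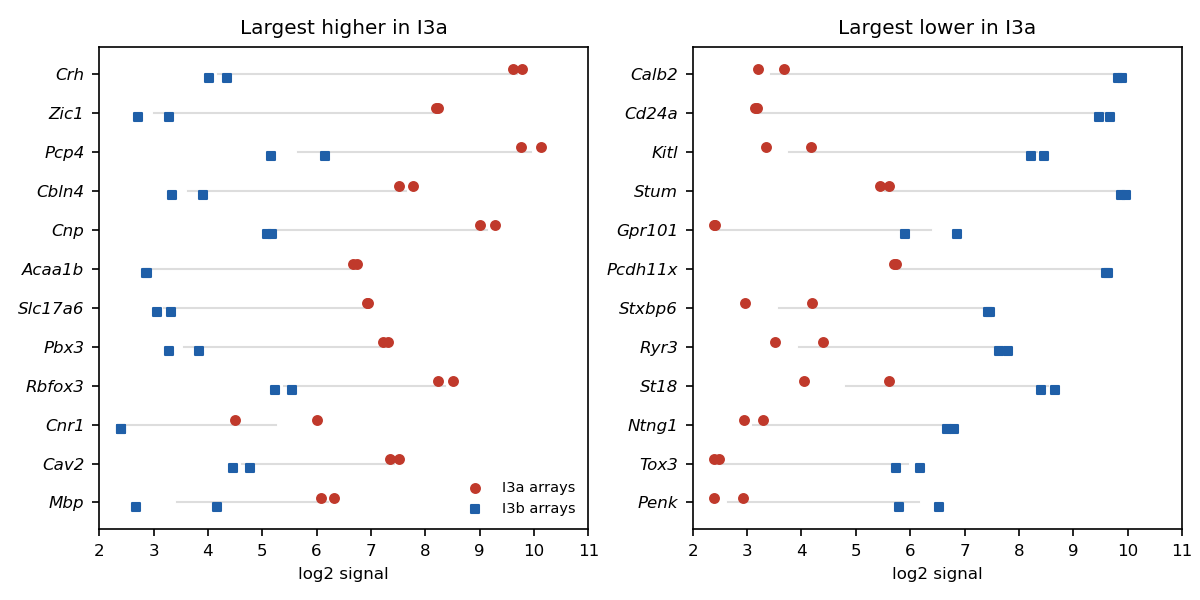
Log2 signal (horizontal axis) of each I3a array (circles) and I3b array (squares) for the 12 genes called with the largest excess (left) and the 12 with the largest deficit (right) in I3a, with a grey line between the 2 means. Crh was at 9.77 and 9.60 in I3a against 4.36 and 4.02 in I3b, and no gene shown has overlapping arrays.

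The genes with the largest deficits in I3a were Calb2 and Cd24a. Calb2, which encodes the calcium-binding protein calretinin, read 3.69 and 3.19 in I3a, against 9.89 and 9.83 in I3b (difference -6.42, SE 0.18, and -4.86 with values under 5 set to 5). Cd24a, a glycoprotein anchored in the cell membrane, read 3.18 and 3.15 in I3a, against 9.47 and 9.67 in I3b (difference -6.41, SE 0.07). For Calb2 the other pools ranged from 4.06 in E2 to 10.20 in I2, with I2 slightly above I3b. Cd24a was different, since all 6 other pools lay at 9.57 to 12.73, so that I3a alone was near the floor. A second probe set of Cd24a gave the same picture, at 2.53 in I3a against 9.35 in I3b.

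Kitl, the ligand of the Kit receptor tyrosine kinase, read 3.35 and 4.18 in I3a, against 8.22 and 8.46 in I3b (difference -4.58, SE 0.27). Stum, the mouse member of a family first known from mechanosensory neurons of the fly, read 5.45 and 5.62 in I3a, against 9.97 and 9.87 in I3b (difference -4.39, SE 0.09). Kitl was lowest of all pools in I3a, next to 5.35 in I2, whereas Stum was as low in E1 (5.69) and lower in E2 (4.33) than in I3a. Gpr101, an orphan G protein-coupled receptor, was at 2.39 and 2.42 in I3a, against 5.91 and 6.86 in I3b, and only I2 (8.18) was higher than I3b. Ryr3, a calcium release channel of the endoplasmic reticulum, read 3.51 and 4.40 in I3a, against 7.63 and 7.80 in I3b. Stxbp6, a syntaxin-binding protein also called amisyn, read 4.20 and 2.97 in I3a, against 7.47 and 7.43 in I3b. In these 3 genes both I3a arrays were under 5 and both I3b arrays well above it, with differences of -3.98, -3.76 and -3.87.

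Tox3, a nuclear protein of the HMG-box family, read 2.48 and 2.39 in I3a, against 5.75 and 6.18 in I3b (difference -3.53, but -0.96 and not called with values under 5 set to 5). Genes that were low in I3a were, more often than genes in general, lowest there of all types, but the contrast itself favours this: I3a was below all 6 other types in 173 of the 317 genes called lower (54.6%, against 18.96% of all genes compared) and I3b was above all others in 113 (35.6%, against 14.2%). Among the 139 genes called higher, I3a was above all other types in 54 (38.8%, against 11.4% of all genes) and I3b below all others in 53 (38.1%, against 8.53%).

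By a wider margin, 20 genes were at least 1 log2 unit higher in I3a than in every other type and 48 at least 1 unit lower, while in I3b 32 were higher and 13 lower. For comparison, I1a had 12 higher and 33 lower, and I2 had 208 higher and 75 lower. I3a thus had more genes that stood below every other pool than above it, and I3b more above than below. The genes lowest in I3a by the widest margin were Cd24a (6.41 units under the next pool), Syt1 (2.70), Ntng1 (2.59) and Sparcl1 (2.46), and those highest in I3a were Cnp (2.52 units over the next), the bHLH factor Neurog2 (2.17) and Plagl1 (2.11). Highest in I3b by the widest margin were Penk (3.07), St18 (3.05), Crhbp (2.98) and Igfbp5 (2.78), and lowest there were Rbfox3 (2.52), Plcxd2 (2.43), Rcor1 (2.23) and Kcnc2 (2.18). Neurog2, Plcxd2 and Rcor1 were named after their values were seen, and Neurog2 was not called with values under 5 set to 5.

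**Figure D3:**
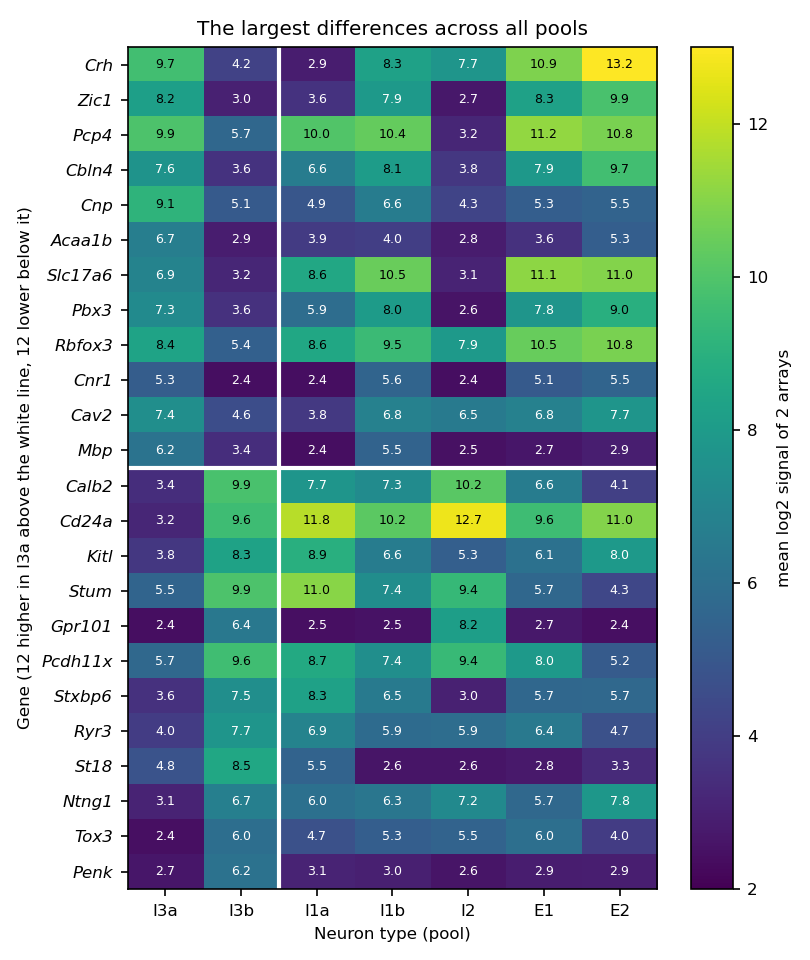
Mean log2 signal (colour and printed number) of the 24 genes with the largest differences in the pools of all 7 types, with I3a and I3b to the left of the white line. Genes called higher in I3a (upper 12 rows) are mostly detected in E1, E2 and I1b as well, and Penk was detected in I3b alone.

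Several of the leading I3a genes were also high in the excitatory pools, and this was read with a list of 10 genes that had been picked on these same arrays for their excess in E1 and E2, so that it is not independent evidence. Of the 10, 7 were called higher in I3a and 0 lower, against 3.15% and 7.19% of all genes, with a median difference of 2.48. They were Crh, Zic1, Pcp4, Slc17a6, Thy1, the formin Fhod3 and the calcium-binding Necab1. The list was not carried as a whole, because Nrn1, a secreted neurite-growth protein, read 2.94 and 3.22 in I3a, against 2.94 and 3.21 in I3b, Cntnap5a differed by -0.26 and Lpl by 0.00. Over all 139 genes called higher in I3a, the E1 and E2 levels were closer to I3a than to I3b in 50.4% and 48.2%, against 48.8% and 50.6% of all genes compared. I1b was closer to I3a in 61.2% of them (48.4% of all genes), I1a in 36.7% (51.0%) and I2 in 41.0% (40.1%). Among the 317 genes called lower, I2 was closer to I3a in 29.0% and the other types in 44.5% to 50.8%.

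Markers of other cells were read in full on both pools. None of the 11 astrocyte, 8 microglial and 7 ependymal and choroid plexus markers on the arrays reached 5 in any type. The astrocyte markers Gfap, Aldh1l1, Gjb6, Sox9 and Fgfr3 were at the floor in both pools. Gja1, the connexin of astrocytes, read 3.81 and 4.57 in I3a, against 2.40 and 2.41 in I3b, and Ttr, the transthyretin gene of the choroid plexus, read 2.39 and 2.45 in I3a, against 4.77 and 5.11 in I3b. Both lay below the level needed for the comparison. Of 9 endothelial and mural markers, Rgs5 alone was compared, and it was near the floor in both.

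Among 13 oligodendrocyte markers on the arrays, Cnp and Mbp reached 5, and both were called higher in I3a. Cnp, an enzyme abundant in myelin, read 9.001 and 9.27 in I3a, against 5.19 and 5.08 in I3b (difference 4.002, SE 0.20), and the other pools lay at 4.25 to 6.62. Mbp, the myelin basic protein gene, read 6.32 and 6.08 in I3a, against 2.68 and 4.17 in I3b (difference 2.78, SE 0.51), with I1b at 5.50 and the remaining pools at 2.43 to 2.94. The defining markers Mog, Mobp, Cldn11, Olig1, Olig2, Ermn and Cspg4 lay at 2.39 to 2.54 in I3a and 2.39 to 2.52 in I3b, and Sox10 at 4.57 in I3a against 4.64 in I3b. The mean over the 13 markers was 3.50 in I3a and 2.93 in I3b. The Cnp value comes from a probe set of the x_at kind, which Affymetrix uses for probes that can match other transcripts, and its second probe set was at 2.40 in both pools. For Mbp, 3 further probe sets were also called higher, by 1.75 to 1.95, and 2 were not called. The part of myelin RNA or of probe matching in these 2 values was not tested.

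Of the 15 neuropeptide, granin and secreted factor genes compared, 1 was called higher in I3a and 4 lower, against 3.15% and 7.19% of all genes, with a median difference of -0.31. Beside Crh, its binding protein gene Crhbp was among the lower ones, at 4.63 and 5.96 in I3a, against 8.30 and 8.24 in I3b (difference -2.98, SE 0.41). Crhbp was at 2.57 to 2.99 in all 5 pools outside the I3 types. The hormone gene thus read high in I3a and the binding protein gene in I3b, with Crhbp detected at a lower level in I3a too. Penk, the precursor of enkephalin opioid peptides, read 2.92 and 2.39 in I3a, against 5.79 and 6.53 in I3b (difference -3.51, SE 0.25), and 2.64 to 3.10 in the other pools. Igf1, insulin-like growth factor 1, read 6.18 and 6.56 in I3a, against 9.42 and 9.49 in I3b (difference -3.08, SE 0.17). Vgf, a granin-like precursor whose peptides are released from dense-core vesicles, read 8.01 and 8.04 in I3a, against 9.46 and 9.49 in I3b (difference -1.45). Of the 4 peptide receptor genes compared 0 were called, beside 10.3% of all genes. Tacr3, the neurokinin B receptor, read 10.86 and 10.73 in I3a against 11.37 and 11.39 in I3b.

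Of 10 calcium-binding protein genes compared, 3 were called higher in I3a and 1 lower, against 3.15% and 7.19% of all genes. Calb2 was the lower one, and Pcp4, Necab1 and Caln1 were higher. Necab1, an EF-hand protein of neurons, read 7.60 and 7.54 in I3a, against 4.93 and 5.95 in I3b (difference 2.13). Caln1, a calmodulin-like protein of the Golgi, read 7.57 and 7.78 in I3a, against 5.55 and 6.06 in I3b (difference 1.87), but the median of its probe sets did not pass the threshold.

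Of 20 transcription factor genes of hindbrain and neurons that were compared, 3 were called higher in I3a (Zic1, Pbx3 and Skor1) and 3 lower (St18, Neurod6 and Prdm8). Among all genes 3.15% were called higher and 7.19% lower, and the median difference of the list was -0.14. St18, a zinc finger factor of the Myt1 family, read 5.61 and 4.04 in I3a, against 8.41 and 8.66 in I3b (difference -3.71, SE 0.45), and reached 5 otherwise only in I1a (5.48). Neurod6, a bHLH factor of differentiating neurons, read 3.44 and 3.45 in I3a, against 6.11 and 6.56 in I3b (difference -2.89, SE 0.19). Prdm8, a zinc finger repressor that acts in neuronal development, read 6.68 and 6.53 in I3a, against 8.14 and 8.45 in I3b (difference -1.69). Skor1, a Ski-family corepressor of dorsal hindbrain and cord neurons, read 5.27 and 5.10 in I3a and 3.40 on both arrays of I3b (difference 1.79). With values under 5 set to 5 Skor1 was not called. The Hox genes compared, Hoxa5 and Hoxb3, which mark position along the hindbrain and cord, differed by 0.28 and 0.03.

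Ion channel genes were called in both directions, and their counts stand beside 3.15% higher and 7.19% lower among all genes. The channels of fast-spiking neurons, which allow short spikes at high rates, had 2 of 7 called higher in I3a and 0 lower, with all 7 differences positive and a median of 0.45. Kcnc2, a potassium channel of the Kv3 class, read 4.65 and 4.51 in I3a, against 2.43 and 2.39 in I3b (difference 2.18). Scn4b, a sodium channel beta subunit, read 4.44 and 4.01 in I3a, against 2.73 and 2.91 in I3b (difference 1.40). Both I3a levels were low for these genes, since E1 read 7.97 for Kcnc2 and 10.15 for Scn4b, and neither call remained with values under 5 set to 5. Kcna1, the Kv1.1 channel, differed by 0.45 (5.76 and 5.67 in I3a, against 5.06 and 5.47 in I3b), and was at 8.46 to 10.02 in E1, E2, I1a and I1b. Neurofilament genes, of large fast axons, gave 0 calls among 4 on the probe sets used, where Nefl differed by -0.69. A second probe set of Nefl was called lower, at 8.87 in I3a against 9.94 in I3b (difference -1.07).

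Among 12 voltage-gated potassium channel genes 1 was called higher (Kcnc2) and 2 lower. Kcna4, the Kv1.4 channel of fast-inactivating A-type currents, was the largest, at 6.69 and 7.22 in I3a, against 9.84 and 9.86 in I3b (difference -2.90, SE 0.25). Kcnq3, a subunit of the M-current channel, read 5.36 and 5.27 in I3a, against 6.48 and 6.38 in I3b (difference -1.11), a call lost after quantile normalization. Kcnd2, the Kv4.2 channel of A-type currents, read 9.74 and 9.70 in I3a, against 10.56 and 10.64 in I3b, without passing the threshold (difference -0.88).

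Of 11 other potassium channel and auxiliary subunits, 1 was higher and 3 lower in I3a. Kcnj3, the GIRK1 subunit of channels opened by G proteins, read 4.56 and 5.05 in I3a, against 6.26 and 6.51 in I3b (difference -1.58). Dpp10, an auxiliary subunit of Kv4 channels, differed by -1.37, and Kcnn2, a small-conductance calcium-activated channel, by -1.05. Kcnab1, a beta subunit of Kv1 channels, differed by 1.35, with 6.54 and 6.87 in I3a against 4.97 and 5.74 in I3b. Sodium channels had 1 higher (Scn4b) and 1 lower (Scn3a, difference -1.10) of 11, calcium channels 1 higher (Cacna1e, 1.12) of 5, and the HCN, TRP and chloride channel list 0 of 7. With values under 5 set to 5 neither Scn3a nor Cacna1e was called.

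Receptor genes for GABA and for amines and acetylcholine leaned to I3a, beside 3.15% of all genes called higher and 7.19% lower. Of 4 GABA receptor genes compared, 3 were called higher and 0 lower, with a median difference of 1.38 against -0.09 for all genes, although only 4 of the 12 on the arrays reached the level for comparison. Gabra2, an alpha subunit of the GABA-A receptor, read 5.86 and 5.82 in I3a, against 2.75 and 3.43 in I3b (difference 2.75, SE 0.24). Gabrb2, a beta subunit, read 7.41 and 6.94 in I3a, against 5.53 and 5.80 in I3b (difference 1.51), and Gabrb1 differed by 1.25. Gabbr1, a subunit of the GABA-B receptor, went the other way without being called, at 8.46 and 7.72 in I3a against 8.90 and 9.01 in I3b. With values under 5 set to 5 only Gabrb2 of the 3 was still called.

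Of 5 amine and acetylcholine receptor genes, 3 were called higher and 0 lower, against 3.15% and 7.19% of all genes, with a median of 1.21. Htr1d, an inhibitory serotonin receptor, read 5.63 and 5.19 in I3a, against 2.81 and 2.76 in I3b (difference 2.62). Htr2c, a serotonin receptor coupled to Gq, read 9.13 and 8.84 in I3a, against 7.66 and 7.63 in I3b (difference 1.34). Chrna7, a nicotinic receptor subunit, read 7.51 and 7.14 in I3a, against 6.11 and 6.13 in I3b (difference 1.21). These receptors thus read higher on both I3a arrays, while Chrna4, another nicotinic subunit, differed by 0.46, and with values under 5 set to 5 Htr1d was not called. Glycine receptor genes gave 0 calls of 5, with Glra1, the main adult alpha subunit, at 10.37 and 10.25 in I3a against 9.51 and 9.53 in I3b. Glutamate receptor genes gave 0 higher and 1 lower of 6, the kainate receptor subunit Grik3 (difference -1.97, not called with values under 5 set to 5). Among 18 genes of G protein signalling, Rgs4, a regulator that speeds the switching off of G proteins, differed by 1.91, Gng13, a gamma subunit, by 1.32 and Gng4, another gamma subunit, by -1.27. The Rgs4 call was lost with values under 5 set to 5.

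Genes of transmitter release were called in 4 of 13 cases, 3 of them higher in I3a, against 10.3% of all genes in either direction. Syt1, the calcium sensor for fast release in many neurons, was the lower one, at 6.59 and 6.77 in I3a, against 9.43 and 9.46 in I3b (difference -2.77, SE 0.12), and the other 5 pools lay at 9.38 to 11.47. Syt2, the sensor that serves fast synapses of the brainstem, was higher, at 4.58 and 4.52 in I3a, against 2.90 and 3.05 in I3b (difference 1.57). Thus Syt1 and Syt2 differed in opposite directions, though Syt2 stayed under 5 in both types, against 6.08 to 8.05 in E1, E2, I1a and I1b. Rims2, a scaffold of the release site, read 6.68 and 6.94 in I3a, against 4.98 and 5.25 in I3b (difference 1.70). Unc13c, a priming factor, differed by 1.51 and was under 5 in both, so that neither it nor Syt2 was called with values under 5 set to 5. Neither Rims2 nor Unc13c was called on the median of its probe sets. Of 10 synaptic vesicle genes 1 was called, Syn2, a synapsin, which was lower in I3a (difference -1.25).

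Matrix genes were called in 7 of 11 cases, against 10.3% of all genes, 4 higher and 3 lower in I3a, with a median of 0.19. Bcan, the proteoglycan brevican of perineuronal nets, read 10.52 and 10.49 in I3a, against 7.80 and 8.09 in I3b (difference 2.56, SE 0.14). The Bcan value comes from an x_at probe set, and the second probe set of the gene was at the floor in both pools. Tnr, tenascin-R, which cross-links those nets, read 7.97 and 7.58 in I3a, against 5.61 and 5.62 in I3b (difference 2.16). Vcan, versican, a related proteoglycan, read 5.67 and 5.35 in I3a and 3.01 on both arrays of I3b (difference 2.50). Each of these 3 net genes was higher on both I3a arrays, and Bcan and Tnr remained called with values under 5 set to 5. Col5a1, a fibrillar collagen, was also higher (1.43).

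On the lower side, Lamb1, a laminin chain of basement membranes, read 5.92 and 6.34 in I3a, against 9.17 and 9.34 in I3b (difference -3.12, SE 0.31). Sparcl1, a secreted matrix protein also called hevin, read 8.69 and 8.57 in I3a, against 11.13 and 11.05 in I3b (difference -2.46, SE 0.05), with all 5 pools outside the I3 types at 11.62 or more. Col24a1, another collagen, differed by -1.88. Lamb1 was at 7.31 and 7.15 in I1a and I2 and at 2.60 to 4.87 in I1b, E1 and E2, so that I3b was the highest of the 7.

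Adhesion genes of the cadherin superfamily were called in 5 of 11 cases, 2 higher and 3 lower, against 10.3% of all genes. Pcdh11x, a protocadherin, read 5.74 and 5.71 in I3a, against 9.61 and 9.64 in I3b (difference -3.89, SE 0.20). Pcdh17, another protocadherin, read 5.98 and 5.87 in I3a, against 3.44 and 3.96 in I3b (difference 2.22, not called with values under 5 set to 5). Cdh2, the classical N-cadherin, read 7.73 and 7.44 in I3a, against 8.94 and 9.08 in I3b (difference -1.42). Protocadherins therefore lay on both sides, and the median of the list was -0.57. A further protocadherin, Pcdh10, differed by -2.34 on the probe set used, but by 0.05 as the median of its probe sets.

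Among 19 contactins, L1-type and other adhesion genes, 3 were higher (Thy1, Opcml and Cntn3) and 1 lower (Cd24a), against 10.3% of all genes. Thy1, a membrane-anchored glycoprotein of projection neurons, read 9.53 and 9.70 in I3a, against 6.94 and 6.89 in I3b (difference 2.70, SE 0.15). The YFP-16 reporter uses Thy1 sequence, so the share of cells from that line and the level of Thy1 cannot be told apart. Opcml, an adhesion protein of the IgLON family, read 10.13 and 10.10 in I3a, against 7.75 and 7.98 in I3b (difference 2.25). Cntn3, a contactin, differed by 1.12, and its call was lost with values under 5 set to 5.

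Axon guidance genes were called in 4 of 19 cases, 2 in each direction, against 10.3% of all genes. Ntng1, the membrane-anchored netrin-G1, read 2.94 and 3.30 in I3a, against 6.68 and 6.81 in I3b (difference -3.63, SE 0.17), and lay at 5.71 or more in every other pool. Unc5d, a receptor for netrins, read 6.28 and 5.32 in I3a, against 3.40 and 3.51 in I3b (difference 2.34). Unc5d was highest in I3a of all 7 types, the next being I1a at 4.22, but it was not called with values under 5 set to 5. Sema3a, a secreted semaphorin, differed by 1.10. Slit2, a ligand of Robo receptors, differed by -1.21 on the probe set used, whereas another of its probe sets, at a low level, was called higher.

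Synaptic organisers included 2 genes higher in I3a and 3 lower among 12, against 3.15% and 7.19% of all genes. Cbln1, the cerebellin that links neurexins to delta-type glutamate receptors, read 6.68 and 6.89 in I3a, against 4.21 and 4.47 in I3b (difference 2.45, SE 0.10), on the same side as Cbln4. Slitrk2, a postsynaptic adhesion protein, differed by -1.61, Lgi2, a secreted epitempin-family protein, by -1.29 and C1ql3, a C1q-like secreted protein, by -1.19. The 2 called cerebellins thus read higher in I3a and the other called organisers lower.

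Trophic signalling was the list with the largest share of members called lower, 6 of 11 with 0 higher, against 7.19% lower and 3.15% higher among all genes, and its median difference was -1.25. Kitl and Igf1 led it, as given above. Igfbp5, a binding protein of insulin-like growth factors, read 3.64 and 4.06 in I3a, against 6.49 and 6.78 in I3b (difference -2.78, SE 0.21). Nrg1, a ligand of ErbB receptors, was at the floor on both I3a arrays, against 4.33 and 4.88 in I3b (difference -2.22, not called with values under 5 set to 5). Igfbp5 passed the filter only through I3b, where it was high, and Nrg1 only through I2 (5.49). The share called lower includes both. Igf1 and Igfbp5 were thus both lower in I3a and both had their highest level of the 7 types in I3b. Fgf1, a fibroblast growth factor, differed by -1.38 and Ret, a receptor for glial-derived factors, by -1.25. These 6 genes include ligands (Kitl, Igf1, Nrg1 and Fgf1), a binding protein and a receptor.

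Immediate early genes, which are transcribed within minutes of neuronal firing or stress, were called lower in 3 of 6 cases and higher in 0. Only 6 of the 22 on the arrays reached the level for comparison. The 3 not called ran the other way, by 0.31 or less. Among all genes 7.19% were called lower and 3.15% higher. Fos, a subunit of the AP-1 transcription factor, read 4.29 and 4.07 in I3a, against 6.53 and 6.33 in I3b (difference -2.24, SE 0.21). Dusp1, a phosphatase that switches off MAP kinases, read 5.73 and 5.75 in I3a, against 7.84 and 7.89 in I3b (difference -2.13, SE 0.14). Klf6, a zinc finger factor, read 5.48 and 6.74 in I3a, against 7.18 and 7.43 in I3b (difference -1.20, SE 0.45), a call that its other probe sets did not pass. Fos was highest in I3b of the 7 types, whereas Dusp1 was higher still in I2 (8.22). Fos and Dusp1 are known targets of CREB, which binds the cAMP response element TGACGTCA or its half-site TGACG. The 250 bases before the start of each called member are therefore shown, from RefSeq on GRCm38.p6, 5′ to 3′ on the gene's strand, with every match to either motif on either strand in capitals (Fos at chr12:85473640-85473889, plus strand, Dusp1 at chr17:26508473-26508722, minus strand, and Klf6 at chr13:5861239-5861488, plus strand):
Fos: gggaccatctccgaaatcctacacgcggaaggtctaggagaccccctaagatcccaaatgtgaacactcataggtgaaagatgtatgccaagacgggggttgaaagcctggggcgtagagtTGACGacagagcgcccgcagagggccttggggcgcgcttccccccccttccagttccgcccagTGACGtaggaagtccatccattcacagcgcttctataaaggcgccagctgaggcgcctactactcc
Dusp1: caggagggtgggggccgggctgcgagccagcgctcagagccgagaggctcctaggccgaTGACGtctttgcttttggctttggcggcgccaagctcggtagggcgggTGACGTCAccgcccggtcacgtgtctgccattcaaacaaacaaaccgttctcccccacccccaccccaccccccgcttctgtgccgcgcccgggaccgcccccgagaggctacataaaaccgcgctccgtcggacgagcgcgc
Klf6: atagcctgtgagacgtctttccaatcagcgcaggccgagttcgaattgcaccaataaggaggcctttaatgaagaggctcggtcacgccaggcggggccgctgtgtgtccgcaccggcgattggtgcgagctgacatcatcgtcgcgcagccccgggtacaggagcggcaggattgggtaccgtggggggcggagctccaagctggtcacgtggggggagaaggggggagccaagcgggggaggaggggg

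The Fos window held 2 half-sites that did not overlap, 129 and 66 bases before the start, and the Dusp1 window held a half-site 191 bases before it and the full element 143 bases before it, which contains 2 overlapping half-sites. No letters of either motif were found in the Klf6 window. Of 32851 promoter windows of the same length in the RefSeq table, 17.8% held the half-site and 1.55% the full element on either strand. A match describes the sequence and is not evidence of binding.

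Lists of general cell function gave few calls. Of 65 respiratory chain genes, 0 were called, against 10.3% of all genes, with differences between -0.54 and 0.56. Respiratory chain members on the arrays averaged 9.75 in both I3a and I3b. Calls were rare at such levels in general, at 2.99% of genes with a mean of 9 or more. There were also 0 calls among 13 glycolysis, 18 cytosolic ribosomal protein and 14 proteasome genes, with differences between -0.79 and 0.67. A second probe set of Slc2a1, in the glycolysis list, was however called lower, at 3.23 in I3a against 5.24 in I3b. The medians of the 4 lists were within 0.04 of 0 as deposited. Of these 4 medians, the signs of glycolysis, the respiratory chain and ribosomal proteins turned under quantile normalization or centring, and those of ribosomal proteins and the proteasome with the median of probe sets. Among 21 chaperones, Hspa8, the constitutive Hsc70, was called higher (1.29) at a low level (5.02 and 5.49 in I3a, against 3.65 and 4.29 in I3b). Among 16 tubulin and microtubule genes, Dcx, doublecortin, a protein of migrating young neurons, was called lower (difference -1.60, with 3.75 and 3.72 in I3a against 5.17 and 5.49 in I3b). Bex and Tceal genes, small proteins abundant in neurons, gave 0 calls of 4. With values under 5 set to 5 neither Hspa8 nor Dcx was called.

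Of 10 imprinted genes, Plagl1, a zinc finger factor expressed from the paternal copy, was called higher, at 10.11 and 10.24 in I3a, against 8.05 and 8.08 in I3b (difference 2.11, SE 0.08). Magel2, a gene of the Prader-Willi region, was called lower (difference -1.01) and lost the call under both scaling alternatives. Plagl1 was at 6.34 to 8.01 in the other pools, so I3a was alone at its level. This value rests on a single x_at probe set, as the other 2 probe sets of the gene were at the floor and their median gave a difference of -0.01.

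**Figure D4:**
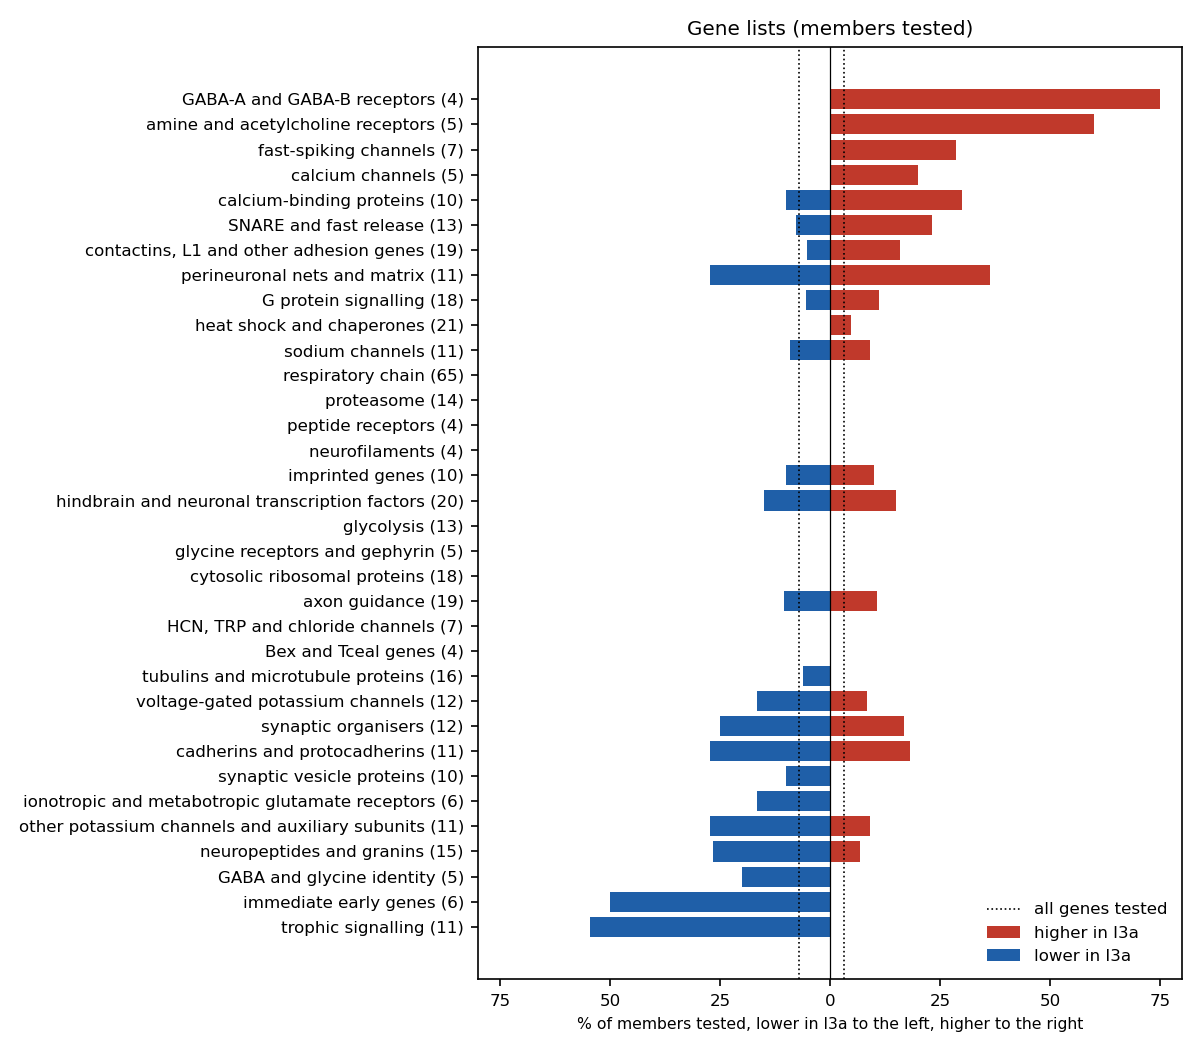
Share of each gene list's compared members that were called lower in I3a (bars to the left) or higher in I3a (bars to the right), in percent, with the number of members compared in brackets and dotted lines at the share among all genes compared (7.19% lower and 3.15% higher). GABA receptors and amine and acetylcholine receptors lean to the right, trophic signalling and immediate early genes to the left, and metabolic lists have no calls.

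At the threshold itself the choice of 1 log2 unit separated genes that were nearly alike. Just inside it were Mrpl44 (1.01), BC005537 (1.004), Morn4 (-1.0005) and Abca5 (-1.0003). Just outside were Ankrd12 (-0.9997), Akap5 (-0.998), AU041133 (0.997) and Nrip2 (0.997).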

How the data were processed

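The deposited series table holds log2 signals that the authors made with affy and GCRMA, per the submitters' processing notes, which corrects background, puts arrays on a common scale and gives a value per probe set. The log base was read from the usual GCRMA output and the values, which run from 2.39 to 15.9, and versions are not given in the sources used here. Signal over background stands in for depth. Of 30843 probe sets, 64 are controls, 24034 have 1 gene symbol in the platform annotation, 477 several and 6268 none. Symbols were updated by Entrez identifier through RefSeq on GRCm38.p6, where 23883 matched. Each gene was read from a probe set with a single symbol, the brightest on average over 14 arrays, a choice that mattered for 5276 of 16244 genes. Because the number of arrays limits the precision, I3a minus I3b is a difference of means of 2 technical arrays, with no test. Its technical SE pools the spread between the 2 arrays over 7 pools, and its median over genes compared was 0.17.

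The rule for naming genes was the 12 largest called differences in each direction without clone-type names, all members of the transmitter lists, and up to 4 members of each other list by absolute difference. List members outside that rule (Vgf, Prdm8, Skor1, Tnr, Col5a1, Col24a1, C1ql3, Fgf1, Ret and Fhod3 among them) were named after their values were seen. Members and the 45 lists were chosen with earlier results of these data known. The call rule was checked on simulated data. Alternatives were the size of the difference, the filter, the scaling, the floor, the probe set, the overlap rule, the technical error and leaving out each array. Computation used python 3.11.15, pandas 2.3.3, numpy 2.4.6 and matplotlib 3.10.9.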

Additional observations from a re-analysis of the deposited data

How the results depend on the processing

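As main values, 139 genes were called higher in I3a and 317 lower. A threshold of 2 log2 units gave 42 higher and 58 lower. Keeping genes with a mean of 7 or more in at least 1 type gave 70 and 149 of 2416 genes, and setting values under 5 to 5 gave 71 and 190. The median over a gene's probe sets gave 96 and 202. Without 1 array at a time the counts ran from 132 to 182 higher and from 274 to 388 lower. No filter, a filter in I3a or I3b alone, quantile normalization, centring, allowing overlap and requiring 3 technical standard errors moved neither count by over 1.5 times, with 116 to 181 higher and 253 to 386 lower.

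Of 80 named genes that were called, 78 kept the call after centring, 77 after quantile normalization, 65 with the median of probe sets and 59 with values under 5 set to 5. Kcnn2 and Magel2 were lost under both scalings and Kcnq3 also after quantile normalization. With the median of probe sets Kcnq3, Kcnj3, Cacna1e, Rims2, Unc13c, Syn2, Caln1, Gabrb1, Grik3, Gng4, Slit2, Sema3a, Pcdh10, Klf6 and Plagl1 were lost. Leaving out 1 array at a time kept 75 to 77, the losses being Scn3a, Sema3a and Klf6 without I3a replicate 1, Kcnn2, Cacna1e, Gabrb1, Cntn3 and Magel2 without I3a replicate 2, Kcnab1, Hspa8 and Magel2 without I3b replicate 1, and Scn3a, Cacna1e and Cntn3 without I3b replicate 2. Under the probe set median the signs of Slit2 (0.82), Pcdh10 (0.0538) and Plagl1 (-0.00707) turned, since their other probe sets read near the floor or the other way. Low signal is a limit, as a difference that reaches the floor has no measured size. No paired analysis was possible because the result comes from no test and the replicate numbers mark technical arrays of 1 pool.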

Other observations

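Genes of the Y chromosome, read after their values were seen, did not move together. Kdm5d, a histone demethylase, read 6.93 and 6.90 in I3a, against 5.49 and 5.84 in I3b (difference 1.25). Eif2s3y, a translation factor subunit, read 4.64 and 4.81 in I3a, against 5.65 and 5.98 in I3b (difference -1.09). The X-linked Xist was at the floor of 2.39 on all 4 arrays, and the sex of the mice is not given in the labels.

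Also named after their values were seen, Neurog2, a proneural bHLH factor, read 4.54 and 5.53 in I3a, against 2.73 and 2.998 in I3b (difference 2.17), and Dll1, a Notch ligand, read 5.03 and 6.09 in I3a, against 4.08 and 3.93 in I3b (difference 1.55). I3a was at least 1 log2 unit above every other type for both, but neither was called with values under 5 set to 5.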
